A study of Mus musculus with 20 samples.

Results

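This report describes 7 mouse imprinting control regions, those of Mcts2, Plagl1, Grb10, Zrsr1, Peg13, Airn and Impact, in gametes and in the separated maternal and paternal pronuclei of zygotes. The rule that picks them is their names and fixed mm9 windows, as control regions known to carry methylation on the maternal copy, and it was written with earlier results of these data known. All 7 of 7 windows had enough reads to be tested in both the maternal and the paternal libraries, among 47253 windows of the genome tested in at least 1 of these sets.

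An imprinting control region is a stretch of DNA that is methylated in the germ line of only one parent. In maternally methylated regions the mark is laid down in the growing oocyte by DNMT3A with its partner DNMT3L, while sperm lack it. After fertilization most of the genome loses methylation, by dilution when DNA is copied and by oxidation of 5-methylcytosine by TET3, the oxidase that the oocyte supplies. Control regions are known to keep their methylation through this period, helped by the zinc finger protein ZFP57, which binds a methylated hexamer, and by its partner TRIM28. That parental difference then sets which copy of the neighbouring genes is expressed.

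The assay was reduced representation bisulfite sequencing, in which DNA is cut with MspI at CCGG sites and unmethylated cytosines are converted, so that CpG-rich fragments are read. Bisulfite reads do not separate 5-methylcytosine from 5-hydroxymethylcytosine, the first product of TET3, so "methylation" below is their sum. The data were 20 libraries, 10 groups of 2, with 22431861 to 68056783 CpG calls each. Oocyte and sperm libraries carried the labels WT and mock. The zygotes came from superovulated females aged 7 to 10 weeks. WT zygotes were from f/f females and CKO zygotes from Zp3-Cre, f/- females, in which the Cre is driven by an oocyte promoter and Tet3 is the deleted gene. All eggs were inseminated with C57BL/6J sperm, so the control and the CKO zygotes share the same paternal strain. Zygotes were either mock-treated or held from 5 h after fertilization in 3 µg/ml aphidicolin, an inhibitor of replicative DNA polymerases. Pronuclei were isolated at 12 h, told apart by size and by distance from the second polar body, and frozen at 13 h. A library typically started from about 20 pronuclei and needed 21 PCR cycles. Whether both libraries of a group derive from different animals is not in the labels. The p-values below thus reflect a spread between libraries, which may be technical. The dispersion, the model's measure of this spread, was shrunk across windows. At the 7 regions it ran from 30.8 to 39.4 in maternal and from 29.05 to 36.2 in paternal libraries. The medians over all windows were 38.0 and 34.3. A p-value thus rests mainly on the spread of windows in general, not on that between the 2 libraries of its own region. No reading of Tet3 itself was available to check the genotype labels.

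The regions differ in what they control and in how densely they carry CpG. RefSeq promoters (GRCm38.p6, 250 bases before to 50 after the start) matched 5 of the 7 names and gave 6 promoters. The promoters of Mcts2, Plagl1 and Airn are shown because they span the range of CpG content among the 6 other than the CpG-densest, a Grb10 promoter with 45 CpG. CpG dinucleotides are in capitals.

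Mcts2, chr2:152686898-152687197, plus strand: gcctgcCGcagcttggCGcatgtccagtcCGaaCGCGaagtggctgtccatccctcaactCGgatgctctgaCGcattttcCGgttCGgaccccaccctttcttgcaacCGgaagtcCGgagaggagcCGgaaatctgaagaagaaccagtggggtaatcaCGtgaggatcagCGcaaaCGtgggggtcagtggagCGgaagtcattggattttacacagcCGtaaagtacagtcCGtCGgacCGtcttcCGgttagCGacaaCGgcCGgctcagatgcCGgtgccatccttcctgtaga

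Plagl1, chr10:13090582-13090881, plus strand: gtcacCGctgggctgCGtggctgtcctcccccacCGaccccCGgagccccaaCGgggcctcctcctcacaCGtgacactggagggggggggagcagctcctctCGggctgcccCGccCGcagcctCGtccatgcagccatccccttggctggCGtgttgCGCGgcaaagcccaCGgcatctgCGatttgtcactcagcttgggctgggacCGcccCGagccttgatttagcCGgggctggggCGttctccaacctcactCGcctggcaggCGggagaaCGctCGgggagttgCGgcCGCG

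Airn, chr17:12741061-12741360, plus strand: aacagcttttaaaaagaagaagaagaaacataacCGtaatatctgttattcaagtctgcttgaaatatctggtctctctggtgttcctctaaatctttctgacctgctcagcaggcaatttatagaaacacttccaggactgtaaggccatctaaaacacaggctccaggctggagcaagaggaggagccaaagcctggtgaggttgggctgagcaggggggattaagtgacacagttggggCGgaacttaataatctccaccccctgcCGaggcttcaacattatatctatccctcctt

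The Mcts2 promoter held 25 CpG and 7 CCGG sites, the Plagl1 promoter 26 CpG and 2 CCGG sites, and the Airn promoter 3 CpG and no CCGG. The median of 32817 mouse promoters was 7 CpG, and 52.8% of them held CCGG. The hexamer TGCCGC, searched on both strands, was present once in the Mcts2 and once in the Plagl1 promoter and was not among the letters of the Airn promoter, and 11.6% of all promoters held it. The methylation files use mm9 and these sequences GRCm38.p6, so whether the covered CpG positions lie in these promoters was not tested.

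The windows held 398 CpG positions with at least 5 reads in 1 or more libraries, in 24 clusters separated by over 100 bp. Grb10 (mm9 chr11:11924500-11927500), an adaptor protein that binds insulin-family receptors and restrains growth, had 138 positions in 3 clusters. Zrsr1 (chr11:22871000-22875000), a splicing factor related to U2AF1, had 90 positions in 5 clusters. Plagl1 (chr10:12809000-12812500), a zinc finger transcription factor, had 55 positions in 2 clusters. Peg13 (chr15:72636000-72642500), a non-coding RNA, had 40 positions in 8 clusters, and Impact (chr18:13129500-13133000), a regulator of the GCN2 stress pathway, had 31 positions in 2 clusters. Mcts2 (chr2:152511500-152514000), a retrogene, had 22 positions in 1 cluster, and Airn (chr17:12933500-12937000), the long RNA antisense to Igf2r, had 22 in 3. The windows were not annotated for exons or introns, because no mm9 annotation was used here. A region's level is the share of methylated calls pooled over its positions, and 54 to 7111 calls stood behind each value, with a median of 1257. Coverage differed between libraries, and only 2 of the 398 positions, both in Zrsr1, had 5 reads in all 20.

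In the gametes all 7 regions matched their name. Grb10 was methylated at 98.9% and 98.7% in the 2 oocyte libraries and 0.256% and 0.880% in the sperm libraries. Peg13 stood at 97.0% and 97.1% in oocytes, and Zrsr1 at 98.0% and 97.9%. In sperm, Zrsr1 had the highest level of the 7, 2.17% and 3.25%, and 13.8% and 18.3% in its cluster 1077 to 1253 bp from the window's centre. Airn had the widest oocyte pair, 99.6% and 90.7%, and the lower of these rested on 54 calls at 3 positions. Of the 253 single positions that both oocyte and both sperm libraries covered, 240 were at 75% or more in both oocyte and at 25% or less in both sperm libraries. The other 13 missed one of these limits, and none was methylated in sperm only. Each oocyte library lay above each sperm library at all 7 regions, and at 100% of 959 other windows chosen as methylated in oocyte but not sperm. The regions were chosen as maternally methylated, so this was fixed in advance and tests nothing. Airn had only 3 positions covered in both oocyte and both sperm libraries, so its class rests on few sites.

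Some zygote libraries stood apart, and they recur in the results below. Across 3364 windows methylated in sperm but not oocyte, the mean level was 3.70% to 5.44% in the oocyte and WT maternal libraries. It was 9.76% and 11.8% in the CKO mock maternal libraries, and 9.81% and 5.82% in the CKO aphidicolin maternal libraries. Across 959 windows methylated in oocyte but not sperm, the mean was 5.36% to 7.63% in sperm and WT paternal libraries. It reached 14.0% in CKO mock paternal replicate 1 and 13.2% in CKO aphidicolin paternal replicate 1, against 7.28% and 9.10% in their replicates. The mean of the 7 regions was 78.6%, 90.9% and 92.8% in the 3 maternal libraries with the most signal of this kind (CKO mock 1 and 2 and CKO aphidicolin 1), and at least 96.4% in the other 7. In the 2 such paternal libraries it was 5.80% and 8.17%, and at most 1.45% in the other 8. The part of this signal in the results below was not tested.

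**Figure D1:**
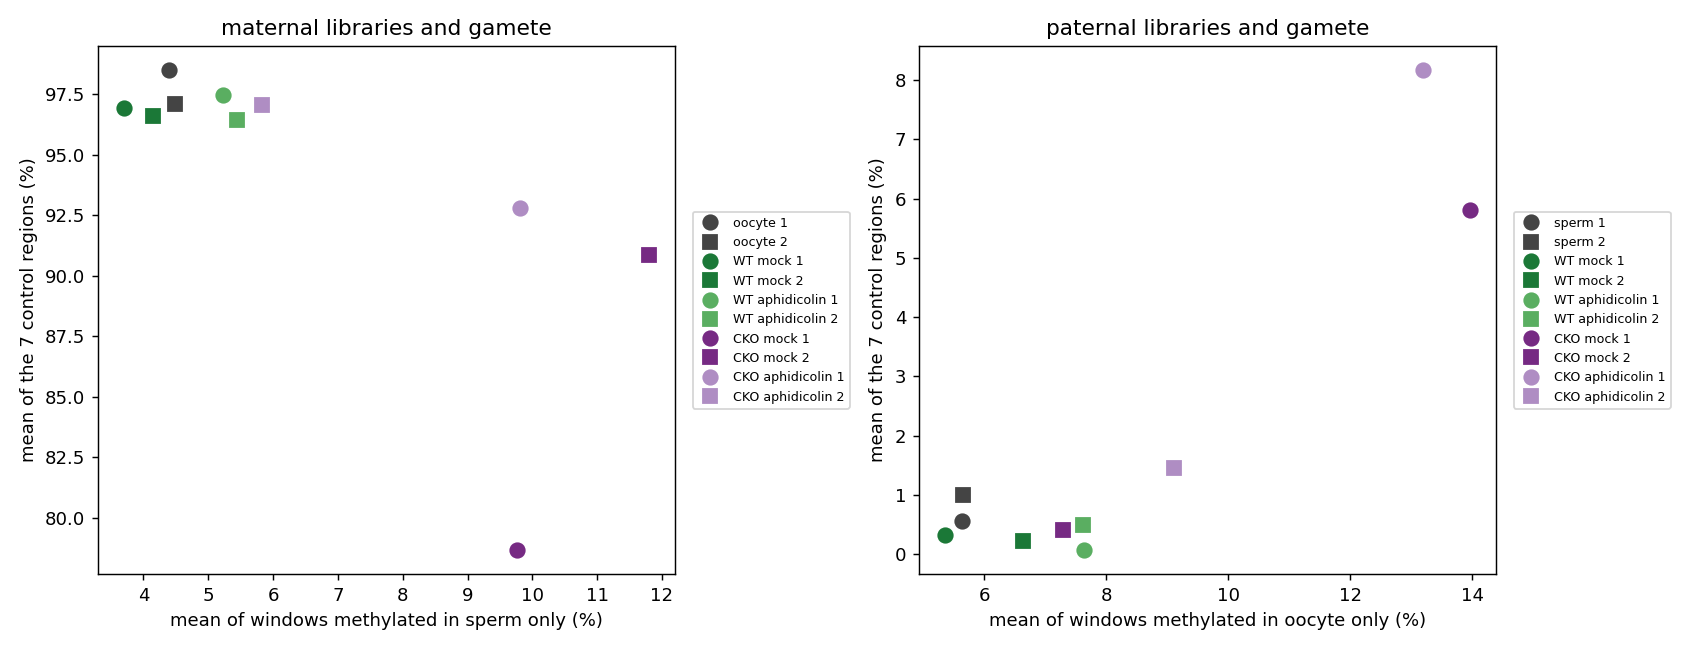
Mean methylation of the 7 control regions (vertical, %) against the mean level of windows methylated only in the other parent's gamete (horizontal, %), for oocyte and maternal libraries on the left and sperm and paternal libraries on the right. Each point is 1 library, circles are replicate 1 and squares replicate 2. CKO mock maternal libraries lie at 9.76% and 11.8% on the horizontal axis with region means of 78.6% and 90.9%, and the paternal libraries furthest right are CKO replicates numbered 1.

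In WT maternal pronuclei at 12 h all 7 regions were still almost fully methylated. Grb10 was at 92.7% and 97.8%, Plagl1 at 97.9% and 94.2%, and Zrsr1 at 96.4% and 95.5% in the mock WT libraries. Peg13 was at 95.5% and 92.2%, Mcts2 at 97.6% and 97.1%, Impact at 98.4% and 99.6%, and Airn at 100% in both. No region fell below 92.2% in either library. The median difference from oocyte was -2.03 points over the 7 regions, against -6.78 over the 959 windows methylated in oocyte only and -0.81 over all 42466 maternal windows. All 7 regions lay above the median of the oocyte-only windows in both WT mock libraries, where that median was 88.2% and 90.6%. In the oocyte libraries, with medians of 96.9% and 97.1%, 7 and 5 of the 7 already lay above it. The oocyte-only windows were selected on their gamete levels, and no test of a difference between them and the 7 regions was made.

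Mock-treated WT maternal pronuclei against oocytes gave no called change at the 7 regions. A call here and below means an adjusted p under 0.05 (Benjamini-Hochberg over all windows of the table) in a quasi-binomial model of the pooled calls, together with a difference of at least 10 percentage points. Of all windows 0.539% were called lower and 0.132% higher, and Grb10 had the only unadjusted p under 0.05 among the 7, 0.0156 (adjusted p = 0.493). Analysed with limma on arcsine square roots, no region was called either, and none had an unadjusted p under 0.05. The WT libraries did not overlap the oocyte libraries at 5 regions, 4 lower (Mcts2, Grb10, Zrsr1 and Peg13) and 1 higher (Airn). Of all windows 34.7% lay lower without overlap and 5.90% higher, and of the oocyte-only windows 62.8% lay lower. The smallest p of an exact permutation test at this group size, 2 against 2, is 0.333.

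With aphidicolin the WT maternal levels stayed in the same range, at or above 90.4%. Grb10 stood at 96.1% and 95.2%, Peg13 at 97.7% and 96.6%, Zrsr1 at 100% and 95.1%, and Plagl1 at 98.4% and 95.4% in aphidicolin. Mcts2 reached 100% in both libraries, Impact 99.9% and 99.4%, and Airn 90.4% and 93.4%. None of the 7 was called against WT mock (0.770% of all windows were called higher and 0.0683% lower), none had an unadjusted p under 0.05 in this model or in limma, and the median difference was 0.83 points, against 6.44 over the oocyte-only windows. Mcts2 and Peg13 were higher without overlap (background 21.7%), and Airn was lower without overlap (background 9.44%). The medians of the oocyte-only windows were 98.9% and 98.6% in aphidicolin, and 3 and 2 of the 7 regions lay above them.

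**Figure D2:**
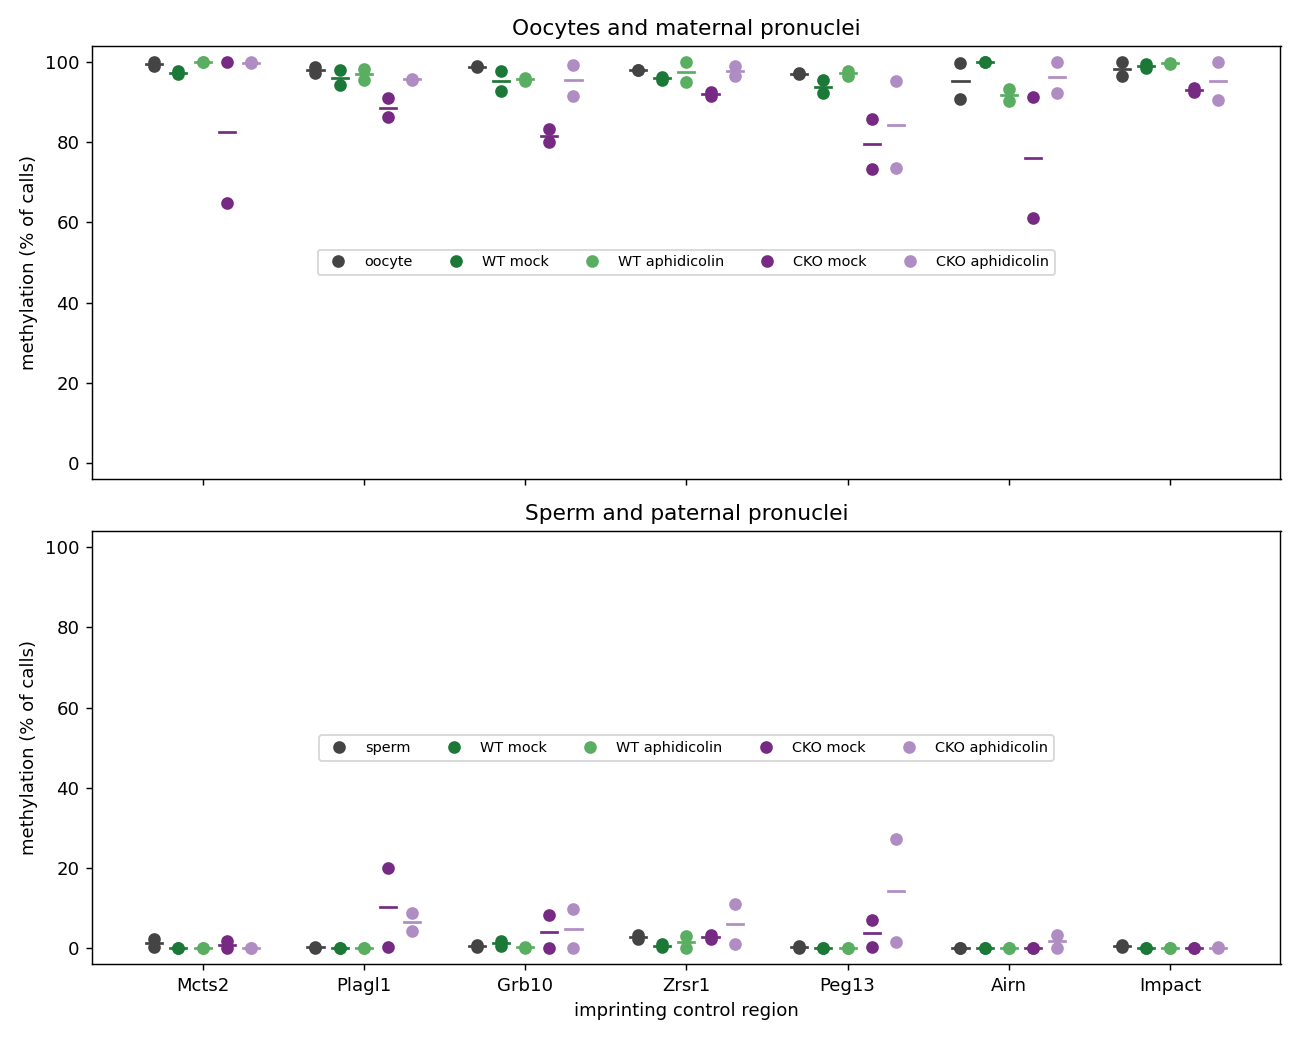
Methylation of each of the 7 control regions (% of calls, vertical), oocytes and maternal pronuclei above and sperm and paternal pronuclei below. Each point is 1 library and the dash is the mean of 2. Maternal WT levels lie between 90.4% and 100%, and the CKO mock points of Mcts2, Plagl1, Grb10, Peg13 and Airn reach lower, to 61.1% at Airn.

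The CKO mock maternal pronuclei were lower than the WT ones at most regions, and Grb10 was the region called. Grb10 was at 80.1% and 83.2% in CKO (81.6% ± 2.21, SD, n = 2) and at 92.7% and 97.8% in WT (95.3% ± 3.61, SD, n = 2). Every CKO library lay below every WT library, with differences of -17.8 to -9.54 points, a mean difference of -13.65 and an adjusted p of 5.18e-05. Against the oocytes the CKO mock libraries fell by 17.2 points (adjusted p = 5.55e-07), a call kept without any 1 of the 10 libraries and lost with limma on arcsine square roots. In each of these comparisons Grb10 was the only 1 of the 7 called. Against WT mock 0.186% of all windows were called lower (0.217% higher), and 3.34% of the oocyte-only windows (0.521% higher). Against oocyte 0.487% of all windows were called lower (0.104% higher), and 8.86% of the oocyte-only windows (0% higher). Without both CKO libraries numbered 1, the difference from WT mock was -12.1 points (adjusted p = 0.000771). The call against WT mock was lost without WT replicate 2 (adjusted p = 0.0722) and with limma on arcsine square roots (adjusted p = 0.342).

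Grb10's change was spread over its 3 clusters. In the cluster from -369 to -28 bp of the window's centre, the CKO mock libraries stood at 62.2% and 72.7%, and WT mock at 72.9% and 96.8%. From 145 to 535 bp they stood at 83.3% and 85.5%, against 93.6% and 98.2% in WT. From 725 to 884 bp they were at 89.0% and 88.4%, against 100% and 95.9%. At the 82 positions that all 4 libraries covered, the difference was -12.14 points. In the plot of Grb10 positions many neighbours stand at one common level. Positions on 1 MspI fragment are read together, so they are not separate measurements.

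**Figure D3:**
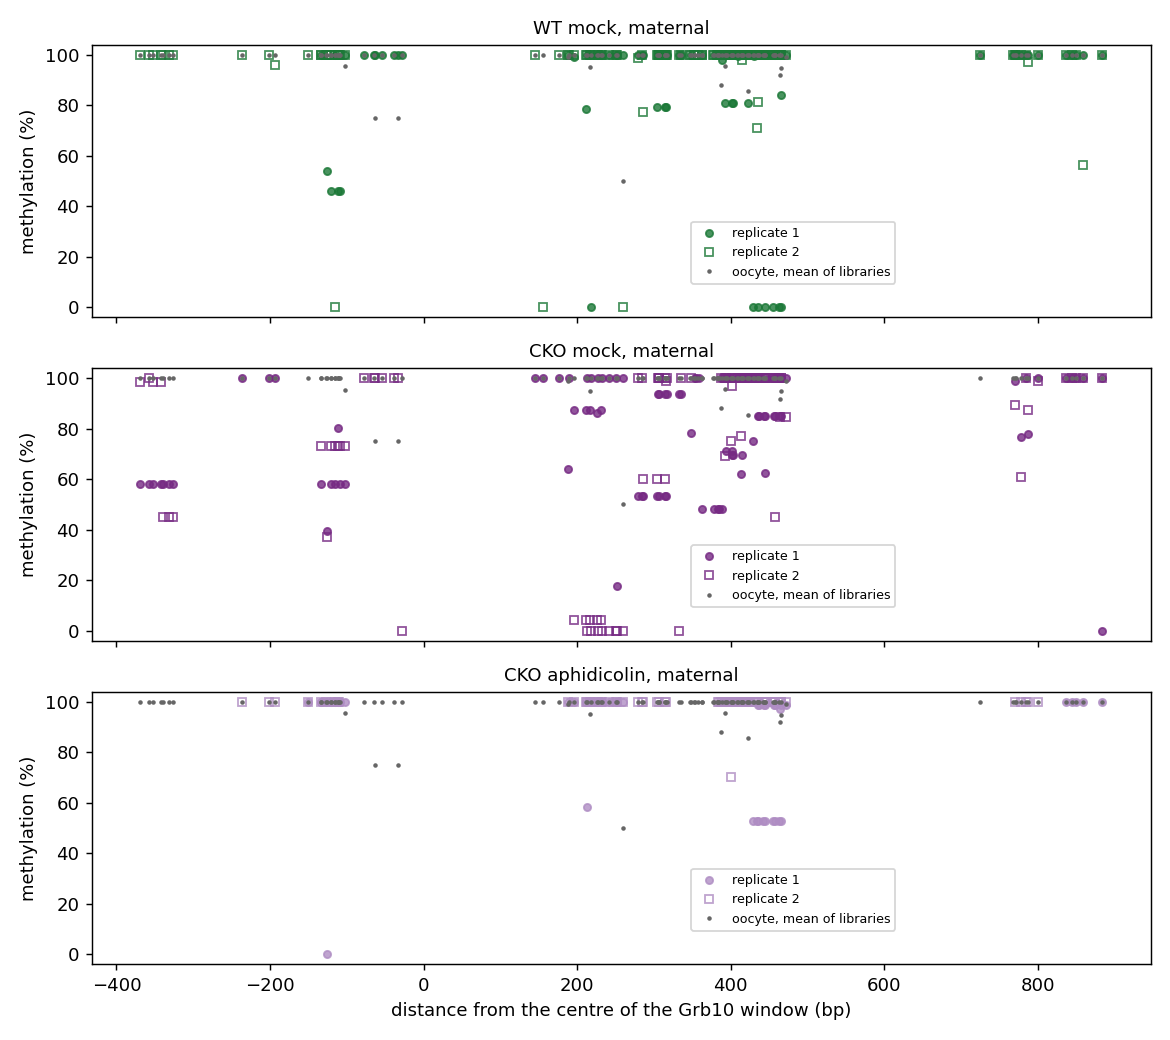
Methylation at single CpG positions of the Grb10 window (%, vertical) against distance from the window's centre (bp, horizontal) in maternal WT mock, CKO mock and CKO aphidicolin libraries. Coloured circles and squares are the replicates and small dots the mean of the oocyte libraries. In CKO mock 71 of 106 and 65 of 96 positions lie at 75% or more, against 87 of 98 and 115 of 120 in WT mock and 50 of 61 and 76 of 77 in CKO aphidicolin, and lower positions stand in runs of equal level.

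The other 6 regions also had lower mean levels in CKO mock than in WT mock pronuclei, and none passed the test. Peg13 was at 73.3% and 85.7%, a difference of -14.3 points from WT mock (adjusted p = 0.206). Plagl1 was at 86.2% and 91.0% (-7.51 points, adjusted p = 0.393). Zrsr1 was at 92.5% and 91.5% and Impact at 92.5% and 93.5%, with differences of -3.94 and -5.97 points. These 4 regions and Airn lay below WT without overlap. With Grb10 that is 6 of 7 regions, where 9.76% of all windows and 38.4% of the oocyte-only windows were (24.1% of all windows were higher without overlap). The median difference of the 7 was -13.65 points, against -5.71 over the oocyte-only windows and 0.67 over all windows.

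At Mcts2 and Airn the CKO mock libraries were far apart. Mcts2 was at 64.9% in replicate 1 and 100% in replicate 2, a mean difference of -14.9 points from WT (adjusted p = 0.320) that turned to 2.65 without CKO replicate 1. At the 13 positions that the 4 libraries shared the difference was -38.3 points. In replicate 1, 10 of its 22 positions were at 25% or less and 9 at 75% or more. Airn was at 61.1% and 91.2% (-23.8 points, adjusted p = 0.396) and -47.6 points at 7 shared positions. Its 3 clusters stood at 20.0%, 100% and 0% in replicate 1.

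Partly methylated positions were more frequent in these libraries over the 7 regions together. Of the positions covered, 25.4% in CKO mock replicate 1 and 11.96% in replicate 2 lay between 25% and 75%. The corresponding shares were 3.16% and 4.09% in WT mock and 1.37% and 2.29% in oocytes. Both CKO mock shares lay above all oocyte and WT maternal ones, and in CKO aphidicolin the shares were 6.22% and 1.94%. Such shares were not counted for other windows, so whether this is particular to the 7 regions was not tested. The oocyte-only windows also had lower medians in CKO mock, 81.0% and 84.2%, against 88.2% and 90.6% in WT mock. Positions on 1 MspI fragment are read together, so these shares do not count separate measurements. The CKO mock libraries are also those with more signal at sperm-methylated windows, 9.76% and 11.8%. The part of that signal in the lower levels was not tested.

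**Figure D4:**
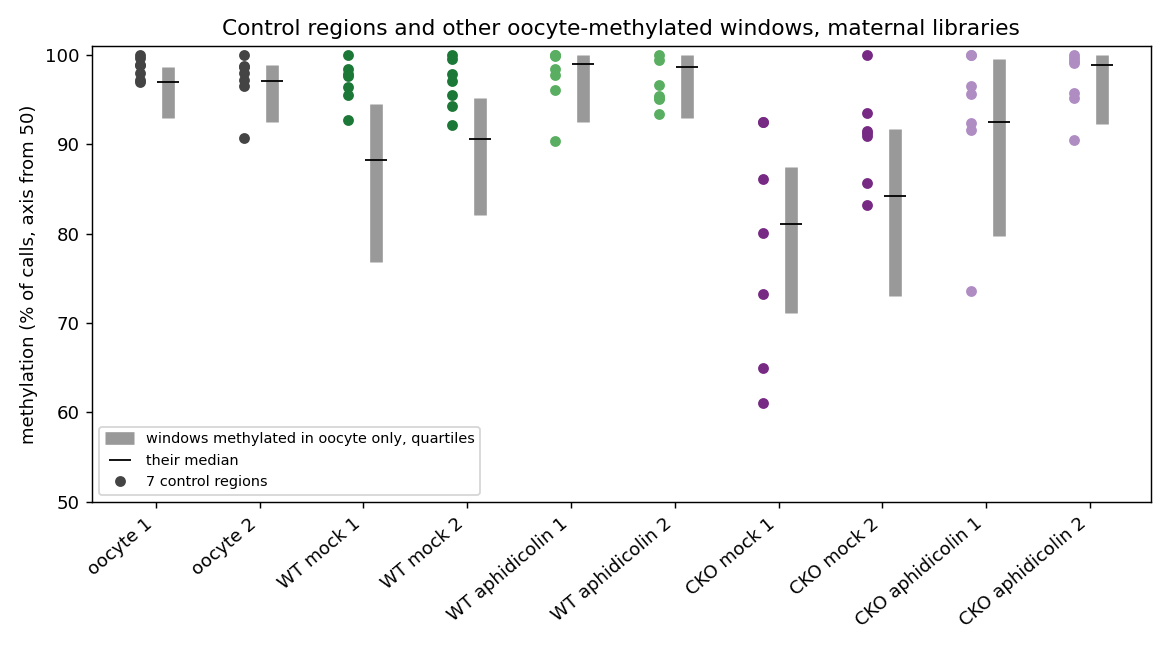
Methylation of the 7 control regions (points, % of calls, axis from 50) in each oocyte and maternal library, beside the quartiles (bars) and the median (line) of 959 windows methylated in oocyte only. In the oocyte libraries 7 and 5 of the 7 points lie above the median. In WT mock all 7 points lie above the medians of 88.2% and 90.6%, and in CKO mock replicate 1 only 3 of 7 lie above the median of 81.0%.

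In CKO maternal pronuclei Grb10 was higher with aphidicolin than without it, the only 1 of the 7 called. Grb10 was at 91.6% and 99.3% in CKO aphidicolin (95.4% ± 5.47, SD, n = 2), 13.8 points above CKO mock (adjusted p = 0.000138). Of all windows 0.796% were called higher and 0.108% lower, and of the oocyte-only windows 7.61% and 0.209%. Both aphidicolin libraries lay above both mock libraries, and at the 41 positions shared by the 4 libraries the difference was 8.66 points. Without CKO aphidicolin replicate 2 it was 9.95 points and the call was lost, as it was in limma (adjusted p = 0.136). Plagl1 at 95.6% and 95.8%, Zrsr1 at 96.6% and 99.1%, and Airn at 92.3% and 100% were higher than mock without overlap, with Grb10 4 of 7, where 20.4% of all windows and 54.6% of the oocyte-only windows were (16.5% of all windows were lower). None of these 3 was called. Mcts2 stood at 100% and 99.7%, and Impact at 100% and 90.4%.

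In aphidicolin the mean levels of the genotypes were close at most regions, and Peg13 differed most. Grb10 differed between CKO and WT by -0.23 points, Mcts2 by -0.17, Plagl1 by -1.20 and Impact by -4.43. Zrsr1 differed by 0.28, Airn by 4.30 and Peg13 by -12.8 points. Between single libraries the Grb10 difference ran from -4.55 to 4.08 points. No region was called, where 0.198% of all windows were called lower and 0.104% higher, and Peg13 was the only one with an unadjusted p under 0.05, 0.00457 (adjusted p = 0.370). With limma none had an unadjusted p under 0.05. Grb10's genotype effect was 13.4 points smaller in aphidicolin than in mock, and the test of that difference gave an adjusted p of 0.665. No region was called for this interaction, and 2 had an unadjusted p under 0.05 (1 with limma). Of all windows 0.0918% were called for an interaction in this direction and 0.104% in the other. Averaged over both treatments Grb10 differed by -6.94 points (adjusted p = 0.000669), which is under the 10 points a call needs.

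At Peg13 every CKO library lay below every WT library of the same treatment, in both treatments. Of the oocyte-only windows 38.4% lay lower without overlap in mock and 20.9% in aphidicolin (6.99% and 7.09% higher). Of all windows 9.76% lay lower and 24.1% higher in mock, and the shares of all windows in aphidicolin are not given here. In CKO aphidicolin Peg13 was at 73.6% and 95.2%, the latter on 11 positions, and in WT aphidicolin at 97.7% and 96.6%. The difference over both treatments was -13.5 points (adjusted p = 0.0142), the only 1 of the 7 called in that comparison. Of all windows 0.243% were called lower and 0.313% higher, and of the oocyte-only windows 3.86% and 0.521%. The CKO replicates numbered 1 were at 73.3% and 73.6%. Without both of them the difference was -5.04 points (adjusted p = 0.311), and limma gave an adjusted p of 0.378. Leaving out 1 library at a time, the call was lost for 6 of 10 (both oocyte libraries, WT mock replicate 1, WT aphidicolin replicate 1, CKO mock replicate 1 and CKO aphidicolin replicate 1), with differences from -18.9 to -8.16 points. CKO aphidicolin minus CKO mock was 4.90 points over all covered positions and -19.9 points at the 9 shared positions.

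The paternal copy of the 7 regions stayed near the sperm level in WT pronuclei. WT mock levels were at most 1.88% (Grb10) and WT aphidicolin levels at most 3.10% (Zrsr1). Plagl1 had no methylated call in either WT mock library (1846 and 2434 calls), which allows up to 0.163% and 0.123%. Airn had none in either, with limits of 0.542% and 0.706%. These limits cover counting error only, since PCR reads without molecular identifiers are not independent molecules.

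In CKO paternal pronuclei the levels above 5% lay in the replicates numbered 1, at Plagl1, Grb10, Zrsr1 and Peg13. Plagl1 was at 20.0% and 0.388% in CKO mock, against 0% in both WT mock libraries, a mean difference of 10.2 points (adjusted p = 0.00528). It was the only 1 of the 7 called higher there, where 1.11% of all windows were (0.105% lower). Among the oocyte-only windows 2.19% were called higher and 0% lower. Without CKO replicate 1 the difference was 0.388 points and the call was lost, as it was when 7 other libraries were left out in turn and in limma (adjusted p = 0.529). In replicate 1, 17 of its 47 positions lay between 25% and 75%, and the raised level was in the cluster from -179 to 245 bp, at 20.7%. In CKO aphidicolin Plagl1 was at 8.76% and 4.24%, against 0% in both WT aphidicolin libraries. The difference of 6.50 points was not called (adjusted p = 0.185), and 21.6% of the oocyte-only windows lay higher without overlap there (6.36% lower).

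Peg13 reached 27.3% and 1.43% in CKO aphidicolin paternal libraries, against 0.142% and 0.463% in sperm. The difference of 14.1 points was called (adjusted p = 0.0207), where 2.25% of all windows were called higher and 0.0587% lower. Among the oocyte-only windows 7.72% were called higher and 0% lower. Without CKO aphidicolin replicate 1 the difference was 1.13 points, and at the 16 positions shared with sperm it was 0.40. The call was lost without any 1 of 7 of the 10 libraries, and in limma (adjusted p = 0.756). Against WT aphidicolin the difference was 14.3 points and was not called (adjusted p = 0.0923). No region was called there, with an unadjusted p under 0.05 at 3 (none with limma), and 0.501% of all windows were called higher and 0.151% lower.

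Grb10 and Zrsr1 had smaller paternal values, of which none was called. Grb10 was at 8.20% and 0.025% in CKO mock and at 9.76% and 0.0566% in CKO aphidicolin, Zrsr1 at 11.1% and 1.01% in aphidicolin. In both, replicate 1 was the higher library. Grb10 passed the p threshold below 10 points in CKO aphidicolin, against sperm (4.34 points, adjusted p = 0.00512) and against WT aphidicolin (4.72 points, adjusted p = 0.0402). Airn was at 0% and 3.38% in CKO aphidicolin, with the higher value in replicate 2. Impact was at 0% in both CKO mock libraries, and Mcts2 at 0% in both CKO aphidicolin libraries. Plagl1, Zrsr1 and Peg13 lay above WT mock in both CKO mock libraries, 3 of 7, where 27.9% of all windows did and 7.38% lay below. The CKO replicates 1 carried 14.0% and 13.2% at oocyte-methylated windows, and the part of that signal in these values was not tested.

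The paternal comparisons with aphidicolin show the 7 regions beside a genome that changed. In WT paternal pronuclei 16.9% of all 32360 windows were called higher in aphidicolin than in mock (0.380% lower), and none of the 7 regions was. Of the oocyte-only windows, low in sperm like the 7 regions, 2.71% were called higher and 1.15% lower. In CKO paternal pronuclei 16.7% of windows were called higher (0.399% lower), again with none of the 7. Of the oocyte-only windows 4.17% were called higher there and 2.09% lower. Over both genotypes 26.4% of windows were called higher (0.355% lower), and for an interaction 0.0896% higher and 0.170% lower, with none of the 7 in either. Against sperm, 24.1% of windows were called lower in WT mock (2.92% higher) and 17.0% in CKO mock (2.73% higher). The 7 regions stood at 3.25% or less in sperm, so a fall of 10 points was not possible, and none was called higher. Of the oocyte-only windows 3.55% were called lower in WT mock (6.47% higher) and 0.313% in CKO mock (8.76% higher). Plagl1 in CKO mock was 9.97 points above sperm (adjusted p = 0.000839) and Grb10 3.55 points (adjusted p = 0.0196), both under the 10 points of a call, and with a minimum of 10 reads per position 1 region was called there. In WT aphidicolin against sperm 2.20% were called higher and 0.235% lower, with none of the 7. With limma none of the 7 was called in these paternal comparisons either. The unadjusted p was under 0.05 for 2 regions in CKO mock against sperm, for 1 in CKO aphidicolin against CKO mock and for 1 over both genotypes, and for none in the others.

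Over both treatments 3 regions passed the p threshold for a higher paternal level in CKO, each under the 10 points of a call. Plagl1 was 8.34 points higher (adjusted p = 0.000149), Peg13 8.99 points (adjusted p = 0.0189) and Grb10 3.80 points (adjusted p = 0.00561). No region was called there, by this model or by limma, where 1.86% of all windows were called higher and 0.179% lower. In 4 regions the unadjusted p was under 0.05.

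Among the maternal comparisons not given above, aphidicolin libraries against oocytes gave no called region. For WT aphidicolin 0.153% of all windows were called higher and 0.134% lower than oocyte. For CKO aphidicolin it was 0.104% higher and 0.137% lower, and 1 of the 7 regions had an unadjusted p under 0.05. Aphidicolin against mock over both genotypes called 3.30% of all windows higher and 0.181% lower. Grb10, 7.11 points higher there (adjusted p = 0.00103), stayed under 10 points, and no region was called, with an unadjusted p under 0.05 at 4. Limma called none in these 3 comparisons.

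The parental copies were far apart in every condition. Maternal minus paternal levels in WT mock ran from 93.8 points (Peg13) to 100 points (Airn). In CKO mock they ran from 75.8 (Peg13) to 93.0 points (Impact), and in CKO aphidicolin from 70.0 (Peg13) to 99.8 points (Mcts2). Every maternal library lay above every paternal library at all 7 regions, where 25.5% of windows tested in both sets did in WT mock, 16.0% in WT aphidicolin, 23.4% in CKO mock and 15.1% in CKO aphidicolin. The closest pair of libraries was that of Peg13 in CKO aphidicolin, 46.3 points apart. The regions were chosen as maternally methylated, so this describes them and tests nothing.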

How the data were processed

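Reduced representation bisulfite sequencing libraries of oocytes, sperm and isolated pronuclei were used, 2 per group and 20 in all. The submitters' processing notes name the build mm9 and, as tools, Bismark 0.10.1 and Trim Galore. The authors deposited, per CpG position, a percent methylated and the counts of methylated and unmethylated calls. The deposited percent differed from that computed from the counts by at most 7.11e-14.

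Calls were pooled over positions with at least 5 reads in each of the 7 named windows and in a grid of 3500-bp windows, kept where each of a parent's 10 libraries had at least 3 positions and 30 calls (42466 maternal and 32360 paternal windows). Groups were compared by a quasi-binomial model per window, with an F test, a dispersion shrunk across windows with squeezeVar of limma 3.58.1 in R 4.3.3 (floored at 1, taken from groups expecting at least 5 calls of both kinds in every library) and Benjamini-Hochberg adjustment over all windows, 11 comparisons per parent. Windows methylated in one gamete only had at least 75% there and at most 25% in the other. Oocyte-only windows and sperm-only windows are described without a test. Scripts ran in Python 3.11.15 and were run on simulated data. The simulation used a lower dispersion than was fitted at the 7 regions and larger changes than those called there. It thus gives no error rate for these calls.

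All 7 regions are named whatever their values, and no other gene is named for its values. The regions, the lists and the dispersion rule were chosen with earlier results of these data known. The libraries held 22431861 to 68056783 CpG calls, and 54 to 7111 per region. Over all windows of a parent, replicate numbers showed no pairing, so the model has no replicate block. Of the 27566 grid windows in both sets, 16455 were at 25% or less in both gametes. Pairing at methylated windows alone, or between maternal and paternal libraries, was not tested. Results with a replicate block are given at the end. Alternatives changed the minimum number of reads, the positions, the dispersion, the tool, the grid, the replicate block and the libraries used. The exclusion of both CKO libraries numbered 1 and the restriction to positions shared by the libraries compared were chosen after seeing the data. Limits on a level of 0% take 3 calls over the total.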

Additional observations from a re-analysis of the deposited data

Results flagged for a closer look

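At 3 regions every CKO mock library lay above every WT mock library in paternal pronuclei and below every WT mock library in maternal pronuclei. Of all windows 27.9% lay higher without overlap in paternal and 9.76% lower in maternal libraries, and of the oocyte-only windows 33.7% and 38.4%. The oocyte-only windows had median differences of 4.23 points in paternal and -5.71 points in maternal libraries. How many windows did both was not counted. The paternal minus maternal effect was 17.69 points at Plagl1 (10.2 paternal and -7.51 maternal), 18.01 points at Peg13 (3.68 and -14.3) and 6.051 points at Zrsr1 (2.11 and -3.94). Peg13 showed the same opposite directions in aphidicolin, with a difference of 27.06 points (14.3 paternal and -12.8 maternal). In aphidicolin 21.6% of the oocyte-only windows lay higher without overlap in paternal libraries (6.36% lower). In maternal libraries 20.9% lay lower (7.09% higher). These parental differences were not tested, since maternal and paternal libraries were fitted separately. In CKO mock the paternal levels of replicates 1 and 2 were 20.0% and 0.388% at Plagl1, 7.14% and 0.224% at Peg13, and 3.32% and 2.24% at Zrsr1.

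At Airn the maternal libraries moved in opposite directions with aphidicolin, every WT library lower (-8.13 points) and every CKO library higher (20.0 points) than mock. The difference of 28.13 points was tested as an interaction and did not pass (unadjusted p = 0.0303, adjusted p = 0.999). Airn had few positions, and the value in CKO mock replicate 1 (61.1%) pooled clusters at 20.0%, 100% and 0%.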

How the results depend on the processing

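Values below are percentage points, or counts of the 7 regions called, and the causes of the changes were not tested. In maternal libraries the single call in each of CKO mock against oocyte, CKO mock against WT mock, CKO aphidicolin against CKO mock, and CKO against WT over both treatments became 0 under limma. CKO against WT over both treatments was also 0 at oocyte-only positions (6 regions tested, without Airn) and without both CKO libraries numbered 1, where the interaction of genotype and aphidicolin gave 1. CKO mock against oocyte gave 2 when only the groups compared were fitted. In paternal libraries the calls of CKO aphidicolin against sperm and of CKO mock against WT mock became 0 with a minimum of 1 read, at oocyte-only positions, under limma, with only the groups compared and without both CKO libraries numbered 1, and CKO mock against sperm gave 1 with a minimum of 10 reads. Flooring the dispersion before shrinkage and a grid of 1000 bp changed none of 22 counts.

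Leaving out 1 library at a time, the count ran from 0 to 2 for maternal CKO against WT over both treatments. It ran from 0 to 1 for maternal CKO aphidicolin against CKO mock, CKO mock against WT mock, aphidicolin over both genotypes and the interaction. It also ran from 0 to 1 for paternal CKO against WT over both treatments, CKO aphidicolin against CKO mock, CKO aphidicolin against sperm, CKO mock against WT mock, CKO mock against sperm and aphidicolin over both genotypes. A group left with 1 library was assumed to vary like the others.

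Over all windows of a parent, replicate numbers showed no pairing. Deviations of same-numbered libraries correlated between groups at -0.0166 to 0.0213 in maternal and -0.0334 to 0.0574 in paternal windows. Methylated windows alone were not tested for this. With the replicate block each of the 4 maternal counts of 1 became 0 (Grb10 adjusted p = 0.237 in CKO mock against WT mock and 0.151 in CKO aphidicolin against CKO mock, Peg13 0.241), and the paternal counts were the same.

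Some uncalled differences changed sign when 1 library was left out, and their lowest and highest values were as follows. In WT mock against oocyte, Impact ran from -0.997 to 2.46. In WT aphidicolin against WT mock, Grb10 ran from -2.15 to 2.95 (-0.0477 without WT aphidicolin replicate 1), Plagl1 from -1.005 to 2.66 (-0.642) and Zrsr1 from -0.851 to 4.06. In CKO aphidicolin against CKO mock, Mcts2 ran from -0.168 to 34.9, Peg13 from -5.88 to 15.7 (-1.34 without CKO mock replicate 1) and Impact from -2.60 to 6.97. Mcts2 ran from -32.4 to 2.65 in CKO mock against WT mock and from -16.3 to 1.24 over both treatments. In paternal CKO mock against WT mock, Mcts2 ran from -0.0265 to 1.80 and Grb10 from -1.21 to 6.96. In paternal CKO aphidicolin against sperm, Grb10 ran from -0.512 to 9.19 and Zrsr1 from -1.70 to 8.36.

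Without both CKO libraries numbered 1, CKO aphidicolin against CKO mock was -0.336 at Mcts2 and -3.09 at Impact, and Mcts2 was 2.65 in CKO mock against WT mock and 1.16 over both treatments. The 4 paternal values were the lowest ones just given. At oocyte-only positions Impact was -1.17 in WT mock against oocyte, Grb10 -0.368 and Zrsr1 -0.833 in WT aphidicolin against WT mock, Zrsr1 0.334 over both treatments, and Zrsr1 -1.68 in paternal CKO aphidicolin against sperm. Impact was -0.359 in WT mock against oocyte with a minimum of 10 reads. Peg13 in CKO aphidicolin against CKO mock was -1.22 with positions weighted equally and -19.87 at shared positions, and Zrsr1 in paternal CKO aphidicolin against sperm was -1.37 at shared positions.

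Only 2 positions were covered in all 20 libraries, which gave no value for any region. Airn, with 54 calls in 1 oocyte library, had the least depth.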
